A study of Mus musculus with 24 samples.

Results

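Immediate early genes are switched on within minutes when a cell is stimulated, without the need for new protein. This report follows 10 of them, Fos, Fosb, Junb, Egr1, Egr2, Arc, Nr4a1, Npas4, Ier2 and Dusp1, on the arrays of cerebellum, brainstem and liver of CAG42 and WT mice. The genes were chosen by name, and every probe set that the platform's annotation assigns to them was taken. That gave 11 probe sets, of 28898 probe sets with a single gene name that stand for 17097 genes. Egr2 had 2 probe sets and each other gene had 1.

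CAG42 mice are homozygous for a knock-in allele of Atxn2, which carries 42 CAG repeats in place of the single CAG of the mouse gene and is driven by the endogenous Atxn2 promoter in all cells that use it. The neomycin selection cassette used to make the allele was excised with Flp recombinase. WT mice were littermates with the unmodified gene, and both came from a line crossed back into C57BL/6 for at least 8 generations. All mice were 18 months old, as the methods state. Each of the 6 groups, CAG42 cerebellum, WT cerebellum, CAG42 brainstem, WT brainstem, CAG42 liver and WT liver, held 4 arrays, and the labels number them 1 to 4. The methods state cervical dislocation for brains taken for PCR, without saying so for the array tissues. The sex of the mice and the hour of tissue collection are not given in the sources used here, and where nothing says more, p-values measure the spread between these arrays.

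The products of these genes act in different ways. Fos, Fosb and Junb encode subunits of the dimeric transcription factor AP-1. Egr1 and Egr2 encode zinc finger transcription factors, Nr4a1 an orphan nuclear receptor and Npas4 a neuronal transcription factor that responds to calcium. Arc encodes a protein of the neuronal cytoskeleton that takes part in the removal of AMPA receptors from synapses, Dusp1 a phosphatase that switches off MAP kinases, and Ier2 a nuclear protein of less well known function. In neurons they respond to synaptic activity through calcium, MAP kinases and the transcription factors CREB and SRF, and in liver to hormones, growth factors and stress. Their transcripts are short-lived, so that levels follow the recent history of a cell.

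CREB binds the cyclic AMP response element, whose full form reads TGACGTCA and whose core reads TGACG. Whether this element bears on how the members varied between arrays was not tested. Promoters are shown for members with an entry in the RefSeq promoter table (build GRCm38.p6) that were above the array's controls in a brain tissue. Each is given for the 250 bases before the annotated start, and capitals mark the core TGACG on either strand (CGTCA where the opposite strand carries it) and the full element.
Fos, chr12:85473640-85473889, forward strand: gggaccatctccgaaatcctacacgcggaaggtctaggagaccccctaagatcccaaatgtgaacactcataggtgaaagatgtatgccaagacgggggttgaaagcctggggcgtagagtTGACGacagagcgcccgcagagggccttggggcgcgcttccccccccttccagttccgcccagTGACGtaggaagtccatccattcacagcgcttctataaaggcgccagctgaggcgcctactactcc
Nr4a1, chr15:101266596-101266845, forward strand: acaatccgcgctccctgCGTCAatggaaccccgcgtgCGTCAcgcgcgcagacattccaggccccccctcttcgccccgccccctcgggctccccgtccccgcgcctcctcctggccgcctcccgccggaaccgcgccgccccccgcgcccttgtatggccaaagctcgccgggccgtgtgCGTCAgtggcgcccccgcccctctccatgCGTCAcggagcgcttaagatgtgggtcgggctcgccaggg
Junb, chr8:84978749-84978998, reverse strand: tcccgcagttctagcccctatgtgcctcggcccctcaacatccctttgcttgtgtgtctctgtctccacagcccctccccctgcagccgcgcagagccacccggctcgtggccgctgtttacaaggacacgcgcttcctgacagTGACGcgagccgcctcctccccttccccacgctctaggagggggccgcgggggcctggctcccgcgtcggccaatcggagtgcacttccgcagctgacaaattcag
Dusp1, chr17:26508473-26508722, reverse strand: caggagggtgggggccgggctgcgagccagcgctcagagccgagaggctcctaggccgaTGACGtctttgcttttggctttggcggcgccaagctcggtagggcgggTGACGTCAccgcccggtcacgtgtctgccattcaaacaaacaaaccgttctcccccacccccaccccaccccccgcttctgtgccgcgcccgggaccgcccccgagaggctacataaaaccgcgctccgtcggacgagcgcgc
Fosb, chr7:19310046-19310295, reverse strand: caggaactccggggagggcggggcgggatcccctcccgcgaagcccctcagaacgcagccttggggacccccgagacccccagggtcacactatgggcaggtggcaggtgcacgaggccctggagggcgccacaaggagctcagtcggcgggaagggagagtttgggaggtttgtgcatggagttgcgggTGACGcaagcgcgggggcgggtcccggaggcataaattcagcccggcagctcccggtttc
Npas4, chr19:4989972-4990221, reverse strand: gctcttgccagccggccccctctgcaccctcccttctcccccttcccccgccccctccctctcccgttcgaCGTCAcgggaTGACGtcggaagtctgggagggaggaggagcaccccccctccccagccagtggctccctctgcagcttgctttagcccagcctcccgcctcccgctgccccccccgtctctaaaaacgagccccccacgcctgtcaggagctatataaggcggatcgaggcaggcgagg

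The core TGACG was searched on both strands from 250 bases before to 50 after the start. It was present in all 7 members with an entry (the 6 above and Egr2). By promoter, as Egr2 has several in the table, it was in 9 of the members' 11. Of all 32851 promoters of that length in the table it was in 20.8%. Fos carried it at positions -129 and -66, Nr4a1 at -233, -213, -69 and -40, Junb at -106, Fosb at -60 and Npas4 at -179 and -169, counted from the start as the first base of the match on the printed strand. Dusp1 had the full TGACGTCA at -143, which holds the core on both strands, and a further core at -191. The full element was in 1 of the 7 members (1 of their 11 promoters) and in 1.79% of all promoters. The CArG box, the site of SRF, was found in Egr2 alone, in 4 of the 11 promoters, against 1.63% of all promoters. Sites outside the searched bases were not looked for, and Egr1, Arc and Ier2 had no entry to search. TATAAA was found in Fos and Junb (2 of the 11 promoters, against 13.6% of all). In Fos it was at -33, and in Junb at position 1, after the printed bases. The AP-1 site TGANTCA (7.81%) and the EGR site GCGTGGGCG (0.612%) matched none of the 11. A match describes the letters and says nothing of binding in these mice.

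Values are log2 levels from RMA, with 45037 probe sets tested after 104 controls were left out. Array medians lay between 4.13 and 4.62, and any 2 arrays of a group correlated at 0.954 or above, with the lowest value in WT liver. Defining markers were at their highest in the labelled tissues. The mean of 6 hepatocyte genes was 12.89 in CAG42 and 12.87 in WT liver and below 5 in either brain tissue, while granule cell and Purkinje cell genes were highest in cerebellum. Atxn2 averaged 9.98 ± 0.10 in CAG42 cerebella and 9.98 ± 0.07 in WT cerebella (SD, n = 4 each), which does not check the genotype, since both alleles are transcribed. As a scale for background, 22 nonspecific control probe sets reached at most 3.26 (cerebellum), 3.35 (brainstem) and 3.21 (liver). A member counted as above the controls where the mean of its 8 arrays passed that value, a rule chosen after seeing the data.

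In cerebellum 8 of the 10 genes lay above the controls, with Fosb and Egr2 below them. In brainstem 9 did, with Fosb only just above (3.41 against 3.35) and Egr2 below. In liver 7 did, as Fosb, Arc and Npas4 were below, and 1 Egr2 probe set sat on the line (3.22 against 3.21). It passed only through the WT livers, at a mean of 3.30, while every CAG42 liver was below the line (mean 3.13). The other Egr2 probe set was below in each of the 3 tissues. A probe set below the line cannot be told from background.

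**Figure D1:**
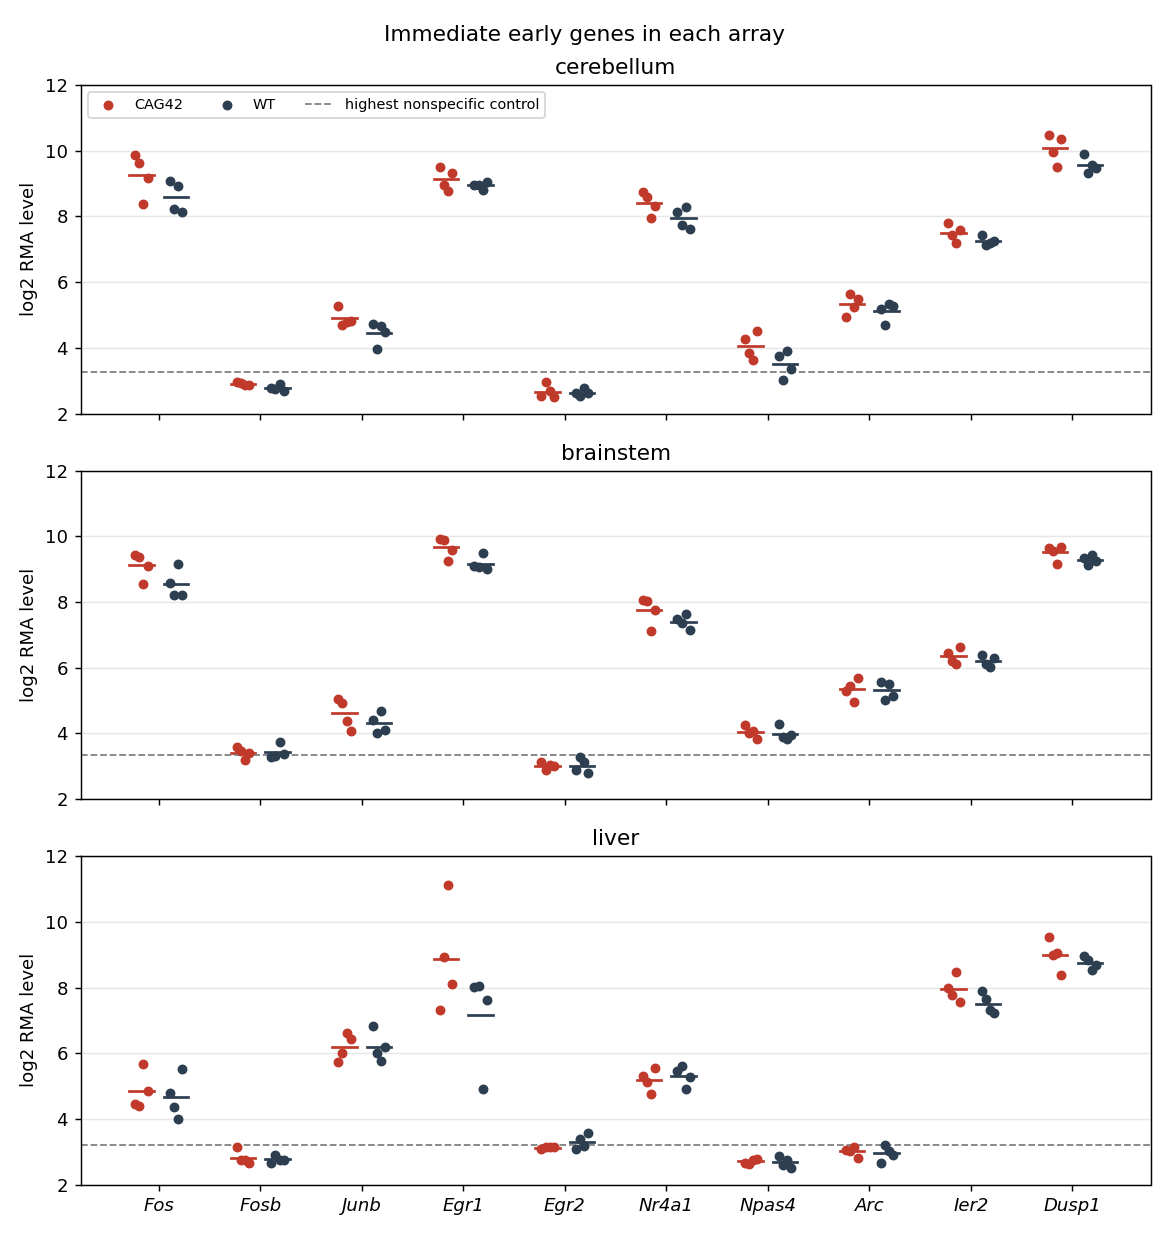
Log2 RMA level (vertical axis) of the 10 genes in each array of cerebellum, brainstem and liver, with CAG42 arrays in red left of WT arrays in dark blue, numbers 1 to 4 from left to right within a group, a bar at the mean and a dashed line at the highest nonspecific control. Egr1 in liver spans 4.92 to 11.12, while Fosb and Egr2 stay near the dashed line in all 3 tissues.

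The first question is where these genes are expressed. WT cerebellum and WT brainstem were each set against WT liver in the fit over all 24 arrays. Whether the 3 tissues were normalized together is not stated, and 18 hybridization controls were themselves higher by a median of 0.25 in WT cerebellum and 0.30 in WT brainstem than in WT liver. Differences of that size between brain and liver are therefore not read as such.

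Fos stood at 9.08, 8.22, 8.91 and 8.13 in the WT cerebella and at 8.58, 8.21, 9.14 and 8.22 in the WT brainstems, against 4.80, 4.36, 3.997 and 5.51 in the WT livers. The lowest brain array was above the highest liver array. The log2 difference was 3.92 ± 0.35 (SE) for cerebellum minus liver and 3.87 ± 0.35 for brainstem minus liver, which are 15.1-fold and 14.6-fold (limma adjusted p = 3.5e-10 and 4.5e-10). For Nr4a1 the differences were 2.62 ± 0.21 and 2.08 ± 0.21. Arc was below the controls on every WT liver array, so that only a bound can be given. Against the highest liver control it was at least 3.74-fold higher in WT cerebellum and at least 4.27-fold higher in WT brainstem (limma adjusted p on the measured values = 4.8e-11 and 1.0e-11). For Npas4, below the controls on every WT liver array too, the bounds were at least 1.23-fold and at least 1.71-fold (limma adjusted p = 0.000159 and 3.7e-07).

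Among the AP-1 subunits, Junb ran the opposite way. It stood at 4.73, 3.96, 4.65 and 4.47 in WT cerebella and at 4.42, 4.01, 4.68 and 4.098 in WT brainstems, against 6.84, 6.01, 5.76 and 6.19 in WT livers. Every liver array exceeded every brain array, with log2 differences of -1.75 ± 0.25 and -1.90 ± 0.25 (limma adjusted p = 7.2e-07 and 2.1e-07). Ier2 averaged 7.25 ± 0.13 in WT cerebellum and 6.20 ± 0.17 in WT brainstem, against 7.51 ± 0.31 in WT liver (SD, n = 4 each). It was thus lower in brainstem than in liver by a log2 difference of -1.31 ± 0.18, and the cerebellum to liver difference of -0.26 ± 0.18 did not pass (limma adjusted p = 0.169). Once each array was centred on its median it was -0.58 and passed (limma adjusted p = 0.00623), as it did among CAG42 mice at -0.46. That centring lowers every difference between brain and liver, by 0.32 for cerebellum and by 0.41 for brainstem.

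Dusp1 was higher in brain than in liver, by 0.81 ± 0.21 for cerebellum and 0.53 ± 0.21 for brainstem. With centred arrays the brainstem value was 0.12 and no longer passed (limma adjusted p = 0.585), and it did not pass either without WT brainstem 3 (0.48) or WT liver 3 (0.46). Egr1 differed by 1.80 ± 0.59 and 2.01 ± 0.59 between WT brain tissues and WT liver, yet WT liver array 3 carries much of both values. Without it the cerebellum difference was 1.05 and did not pass (limma adjusted p = 0.0549), and the brainstem difference was 1.27 and passed (limma adjusted p = 0.0231). Among CAG42 mice the Egr1 differences were 0.26 for cerebellum minus liver and 0.79 for brainstem minus liver, and neither passed (limma adjusted p = 0.689 and 0.222).

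Between the brain tissues, Ier2 was higher in WT cerebellum than in WT brainstem by 1.05 ± 0.18 (limma adjusted p = 2.6e-05), without overlap of the 4 arrays each. Nr4a1 was higher in cerebellum by 0.54 ± 0.21 (limma adjusted p = 0.0432), a call that was lost without WT cerebellum 1 or 3 or without WT brainstem 1, 2 or 4, at differences of 0.43 to 0.56. Npas4 was lower in WT cerebellum by a log2 difference of -0.48 ± 0.18 (limma adjusted p = 0.0286). That call was lost without WT cerebellum 2 or 4 or WT brainstem 1 and with centred arrays, at -0.43 to -0.32, and among CAG42 mice the Npas4 difference was 0.0185. For Fos, Junb, Egr1, Arc and Dusp1 the differences between the WT brain tissues were -0.21 to 0.28 and did not pass, although among CAG42 mice that of Dusp1 was 0.56 and passed (limma adjusted p = 0.0292).

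In all, 6 of the 11 member probe sets passed for cerebellum minus brainstem, where 47% of all probe sets did, 8 of 11 for cerebellum minus liver against 81.8%, and 11 of 11 for brainstem minus liver against 80.8%. Shares so near the background are no property of the members. Some of the calls were of probe sets at the controls, among them Fosb and Egr2 in cerebellum.

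The second question is whether the knock-in allele moved the genes. No member probe set passed in any tissue in the limma fit. Of the 11, 0 were called in cerebellum, against 0.0444% of all probe sets. The count was 0 for brainstem too, against 0.0155%, and 0 for liver, against 0.147%. The liver background depends on single arrays and on the fit: without WT liver 1 it was 6.39%, and with liver fitted alone 0 probe sets passed (0 member probe sets in both cases). At an unadjusted p under 0.05 the numbers were 3, 0 and 2, where 3.59%, 4.17% and 8.61% of all probe sets reached it. These numbers depend on the fit over all tissues. With each tissue fitted alone, Junb, Nr4a1, Npas4 and Dusp1 reached it in cerebellum, Fos and Egr1 in brainstem, and no member in liver. The share of all probe sets was not counted in those fits, so these names are not read as a result about the members. Their limma adjusted p there was 0.838 or 0.839 in cerebellum and 0.755 in brainstem. In an exact permutation test of 4 against 4 arrays, whose smallest possible p is 0.0286, none of the member probe sets fell under 0.05. The genotypes overlapped in every member probe set, while in 3.94%, 3.7% and 2.76% of all probe sets they did not.

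In cerebellum the log2 difference (CAG42 minus WT) was above 0 for 10 of 10 genes, each by its brighter probe set, where 47.6% of all probe sets had one above 0. That count holds Fosb and Egr2, whose values cannot be told from background, and all 8 genes above the controls were among the 10. The other Egr2 probe set was at -0.03. The median over the 10 genes was 0.34, and 0.45 over the 8 above the controls, against -0.01 over all probe sets. The genes share their arrays and varied together, so that they are not 10 separate observations. With each cerebellar array left out in turn, the number of genes above 0 was 9 or 10 of 10.

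Fos read 9.88, 9.63, 8.38 and 9.16 in the CAG42 cerebella and 9.08, 8.22, 8.91 and 8.13 in the WT cerebella. Of the CAG42 values 3 were above the highest WT value, whereas CAG42 array 3 lay between the WT values. The log2 difference was 0.68 ± 0.35 (SE), or 1.60-fold (limma adjusted p = 1.00, exact permutation p = 0.114). Without CAG42 array 3 the difference was 0.97, and without CAG42 array 1 it was 0.47.

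Junb read 5.28, 4.70, 4.80 and 4.81 in CAG42 cerebella and 4.73, 3.96, 4.65 and 4.47 in WT cerebella. Here the lowest CAG42 value, array 2, was just below the highest WT value, array 1. The log2 difference of 0.44 ± 0.25 had an exact permutation p of 0.0571 (limma adjusted p = 1.00), and it was 0.28 without WT array 2. Fosb, the third AP-1 subunit measured, was at the controls, between 2.699 and 2.95 on every cerebellar array.

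Among the other transcription factors, Nr4a1 read 8.73, 8.59, 7.96 and 8.32 in CAG42 cerebella and 8.12, 7.75, 8.27 and 7.61 in WT cerebella, again with CAG42 array 3 as the only one of its group below the highest WT array. Its log2 difference was 0.46 ± 0.21 (limma adjusted p = 1.00, exact permutation p = 0.114). Npas4, which lies near the controls, read 4.27, 3.85, 3.62 and 4.50 in CAG42 cerebella and 3.74, 3.02, 3.91 and 3.35 in WT cerebella. CAG42 arrays 1 and 4 were above all WT arrays, and the log2 difference was 0.55 ± 0.18 (limma adjusted p = 1.00, exact permutation p = 0.143). Relative to its error it was the largest among the members in the fit over all tissues. That fit takes in liver, where Npas4 was at the controls. With cerebellum fitted alone the SE of Npas4 was 0.23, and Junb, Nr4a1 and Dusp1 had lower unadjusted p-values. Egr1 had 0.19 ± 0.59, or 0.07 without CAG42 array 1, and an SE of 0.15 with cerebellum fitted alone. Both Egr2 probe sets stayed at the controls.

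Of the remaining members, the MAP kinase phosphatase Dusp1 read 10.47, 9.96, 9.49 and 10.34 in CAG42 cerebella and 9.91, 9.33, 9.57 and 9.47 in WT cerebella. Array 3 was once more the lowest of the CAG42 group and fell between WT values. The log2 difference was 0.50 ± 0.21 (limma adjusted p = 1.00, exact permutation p = 0.114). Ier2 had a difference of 0.25 ± 0.18, which was 0.15 without CAG42 array 1. The synaptic gene Arc had one of 0.21 ± 0.17, which was 0.07 without WT array 2.

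In brainstem 8 of 10 genes had a log2 difference above 0, against 46.2% of all probe sets, and the median was 0.18 over the 10 and 0.22 over the 9 above the controls, which held all 8. Fos read 9.44, 9.38, 8.55 and 9.11 in the CAG42 and 8.58, 8.21, 9.14 and 8.22 in the WT brainstems. As in cerebellum, CAG42 array 3 was low for its group, and WT array 3 was high for its own. The log2 difference was 0.58 ± 0.35 (limma adjusted p = 1.00, exact permutation p = 0.143).

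Egr1 was at 9.90, 9.88, 9.26 and 9.60 in CAG42 brainstems and at 9.09, 9.06, 9.48 and 9.01 in WT brainstems. Of the CAG42 arrays 3 were above all WT arrays, and CAG42 array 3 was below WT array 3. The log2 difference of 0.50 (1.41-fold) had an SE of 0.59 in the fit over all tissues, because the spread of Egr1 in liver enters it. With brainstem fitted alone the SE was 0.16, and the limma adjusted p was 0.755 (exact permutation p = 0.0571).

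The differences of the other brainstem members were 0.34 ± 0.21 for Nr4a1, 0.30 ± 0.25 for Junb, 0.22 ± 0.21 for Dusp1 and 0.14 ± 0.18 for Ier2. With single arrays left out they ranged from 0.23 to 0.54 for Nr4a1, 0.16 to 0.48 for Junb, 0.17 to 0.34 for Dusp1 and 0.04 to 0.22 for Ier2. Those of Npas4, Arc and Fosb, at 0.05, 0.04 and -0.02, were so small that their sign turned when single arrays were left out. None of these 7 genes had an unadjusted p under 0.05.

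**Figure D2:**
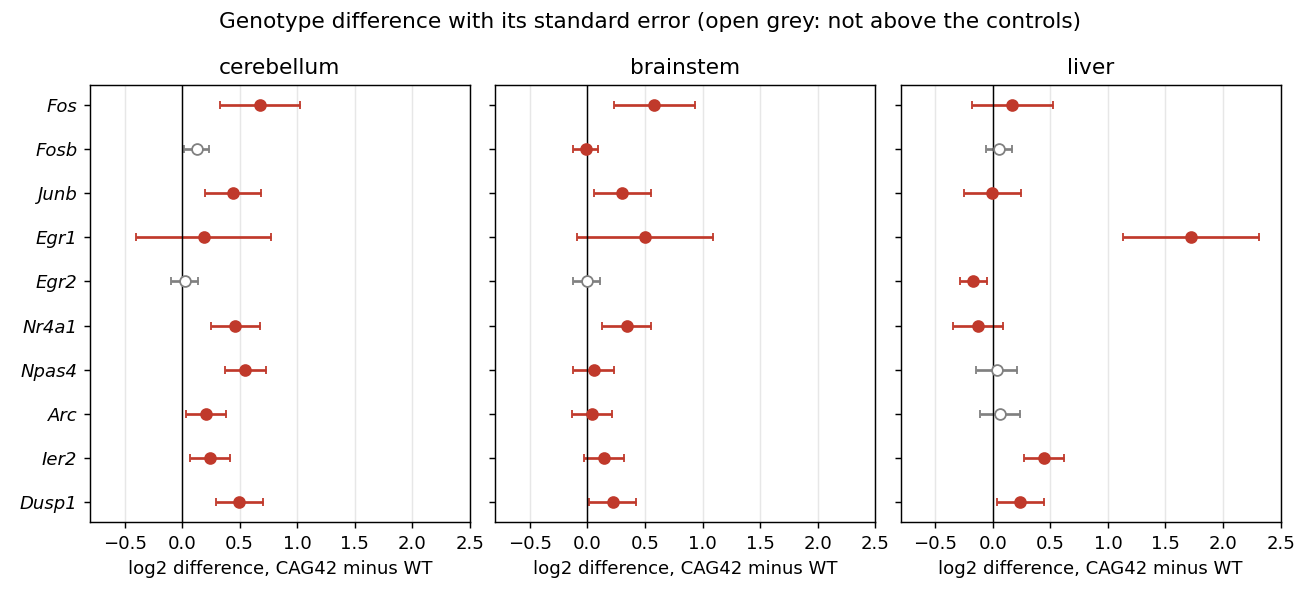
Log2 difference between genotypes (CAG42 minus WT, horizontal axis) with its standard error from limma for the 10 genes in cerebellum, brainstem and liver. Filled red points are genes above the controls in that tissue and open grey points the others. The points of cerebellum lie right of 0, and Egr1 in liver has both the largest difference, 1.72, and a standard error of 0.59. The standard errors are from the fit over all tissues, and with liver fitted alone that of Egr1 was 0.90.

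In liver Egr1 stood apart. It read 7.32, 8.92, 11.12 and 8.12 in the CAG42 livers and 8.02, 8.03, 4.92 and 7.62 in the WT livers, a 73.8-fold range between CAG42 array 3 and WT array 3. The other 6 livers lay between 7.32 and 8.92. The log2 difference was 1.72 ± 0.59, or 3.30-fold, and did not pass (limma adjusted p = 0.35, exact permutation p = 0.2). The SE of 0.59 comes from the fit over all tissues, which takes in the smaller spread of Egr1 in the brain tissues. With liver fitted alone the SE was 0.90, and the limma p before adjustment was 0.0878. Without CAG42 array 3 the log2 difference was 0.97, and without WT array 3 it was 0.98.

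Fos shared these extremes in part, with 4.45, 4.40, 5.67 and 4.84 in CAG42 livers and 4.80, 4.36, 3.997 and 5.51 in WT livers. CAG42 array 3 was the highest liver and WT array 3 the lowest. Its log2 difference was 0.17 ± 0.35, and its sign turned without either array. Ier2 read 7.99, 7.76, 8.49 and 7.57 in CAG42 livers and 7.89, 7.64, 7.30 and 7.21 in WT livers. Array 3 of CAG42 was again on top, and the difference was 0.44 ± 0.18 (limma adjusted p = 0.464, exact permutation p = 0.143). Without that array it was 0.26.

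The hepatic differences of Dusp1, Nr4a1 and Junb were 0.24 ± 0.21, -0.13 ± 0.21 and -0.0042 ± 0.25, and that of Dusp1 was 0.06 without CAG42 array 1. In liver 7 of 10 genes had a difference above 0, against 47.3% of all probe sets, with a median of 0.06, and 4 of the 7 above the controls did. Those 7 include Egr2, at a difference of -0.17, which passed the controls only through its WT arrays and cannot be read for genotype. Array weights from limma were lowest for WT liver array 1, at 0.122. Without that array the difference for Egr1 was 2.01 in the fit over all tissues (limma adjusted p = 0.0548).

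The genotype difference was also compared between tissues. As interaction contrasts in the same fit, 0 of 11 member probe sets passed for cerebellum minus brainstem (0.00222% of all probe sets did), for cerebellum minus liver (0.00888%) and for brainstem minus liver (0.00888%). At an unadjusted p under 0.05 the counts were 0, 1 and 0, where 1.68%, 3.98% and 4.69% of all probe sets reached it. The 1 was Npas4, which was at the controls in liver. For Egr1 the contrast was -1.53 ± 0.83 on the log2 scale for cerebellum minus liver and -1.22 ± 0.83 for brainstem minus liver (limma adjusted p = 1.00 for each). No member was shown to respond to genotype in one tissue more than in another.

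The members differed widely between arrays of one group. Within a group the pooled SD of the 8 members above the controls in cerebellum had a median of 0.32, against 0.13 over all probe sets. Of these 8, 6 were above the 90th percentile of all probe sets, as were 5 of 9 in brainstem and 3 of 7 in liver, where medians of 0.26 and 0.36 stood against 0.13 and 0.20 over all probe sets. Fos reached an SD of 0.58 in cerebellum (99.1th percentile) and 0.42 in brainstem (98.1th percentile). In liver the SD of Egr1 was 1.57, above that of all but a few probe sets (99.96th percentile). The lowest SD of a member above the controls was 0.20 in cerebellum (Ier2), 0.19 in brainstem (Fosb) and 0.15 in liver (Egr2). Fosb and Egr2 were close to the controls there.

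Most pairs of members deviated in the same direction in the brain tissues, although no pair passed after adjustment. After the group means were removed, the 8 cerebellar arrays gave a median Pearson r of 0.63 over the 28 pairs of members above the controls, with 26 pairs above 0 and 6 above 0.8. In brainstem the median was 0.54 over 36 pairs, with 29 above 0 and 9 above 0.8. In liver the median was 0.13 over 21 pairs, with 12 above 0 and none above 0.8. Without Egr2, which sat on the line there, it was 0.13 over 15 pairs, with 9 above 0. None of the 135 pairs over all 10 genes and 3 tissues passed after Benjamini-Hochberg adjustment of exact permutation p-values over all pairings within genotype (lowest adjusted p = 0.117), while 6 pairs in cerebellum, 10 in brainstem and 0 in liver had an unadjusted p under 0.05. The same counts over pairs of other genes were not made, so these are not read as particular to the members.

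**Figure D3:**
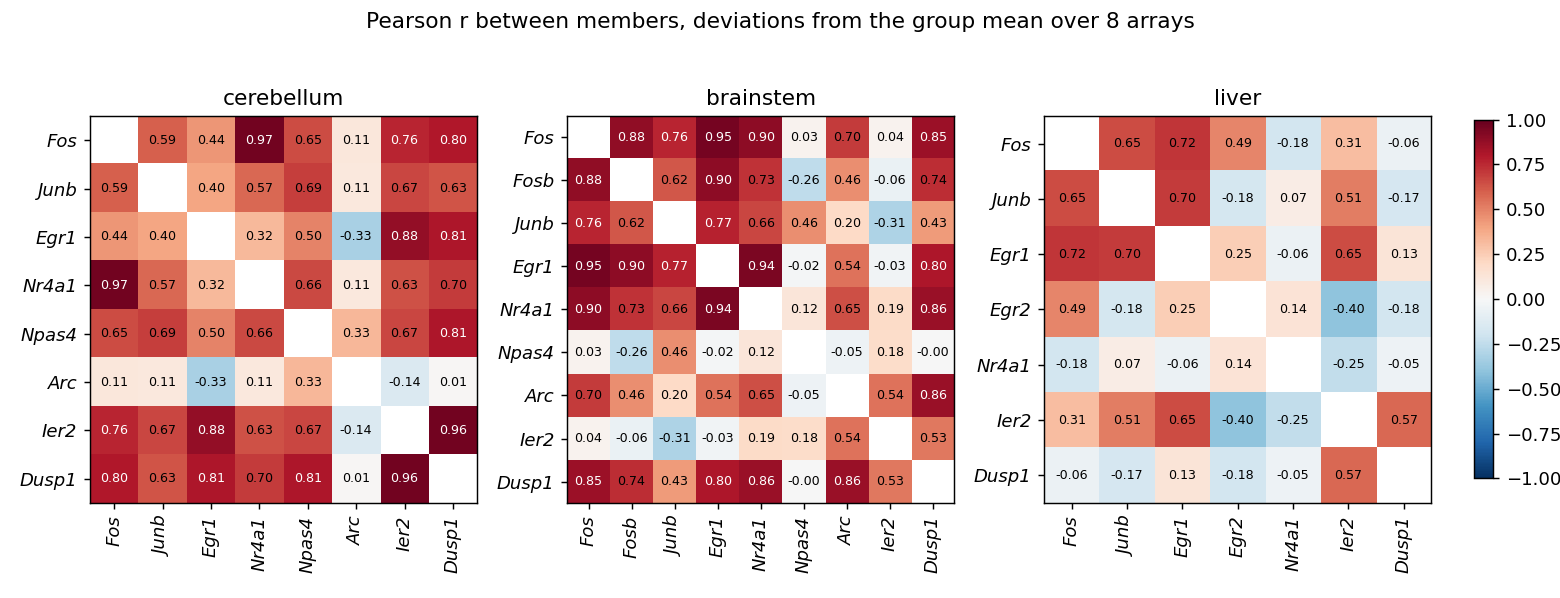
Pearson r between every pair of members above the controls, over the deviations of 8 arrays from their group mean, in cerebellum, brainstem and liver, with red for positive and blue for negative values. Most pairs are red in both brain tissues, where Fos with Nr4a1 has 0.97 and 0.90, while liver has 12 red pairs of 21.

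Fos and Nr4a1 were the closest pair in cerebellum, with r = 0.97 and Spearman's rho = 0.83, and r = 0.93 without the 2 arrays farthest from the median of Fos (exact permutation p = 0.00521, adjusted over the 135 pairs 0.141). In brainstem the pair had r = 0.90, and Egr1 joined it, with r = 0.95 to Fos (rho = 0.95) and 0.94 to Nr4a1 (rho = 0.90). In cerebellum Egr1 instead went with Ier2 (0.88) and Dusp1 (0.81), and its r with Fos was 0.44. Ier2 and Dusp1 had 0.96 in cerebellum and 0.53 in brainstem.

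Arc, the neuronal effector gene, stood outside this group in cerebellum, where its r with the other members above the controls ran from -0.33 to 0.33. In brainstem it had 0.86 with Dusp1 and 0.70 with Fos. Npas4 had 0.50 to 0.81 with the 6 members other than Arc in cerebellum, and -0.26 to 0.46 with the other members above the controls in brainstem. Among members above the controls in liver, the pairs of highest r were Fos with Egr1 (0.72) and Junb with Egr1 (0.70), and both involve the extreme Egr1 arrays.

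CAG42 array 3 carried part of the pattern. Without it the median r was 0.48 in cerebellum and 0.36 in brainstem. Leaving out any other single array gave 0.57 to 0.68 in cerebellum and 0.52 to 0.79 in brainstem. In liver the median ran from -0.15 to 0.32, the lowest value without WT array 3.

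The arrays of cerebellum and brainstem with one genotype and number also deviated together. Over all probe sets their deviations correlated at 0.224 to 0.375 in each of the 8 cases, always higher than with another number of the same genotype, although the labels do not say that a number marks 1 mouse. For Nr4a1 the deviations in cerebellum and brainstem had r = 0.93 and rho = 0.93 over these 8 array pairs, and r = 0.88 without 2 of them. The exact permutation p was 0.00174, the smallest that the pairings within genotype can give, and 0.0521 after adjustment over 30 tests (10 genes and 3 pairs of tissues). Leaving out each pair in turn left r between 0.91 and 0.96.

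For Fos the corresponding r was 0.88 (rho = 0.81, 0.72 without 2 pairs), for Dusp1 0.87 (rho = 0.69, 0.67 without 2 pairs) and for Ier2 0.75 (rho = 0.74, 0.82 without 2 pairs), with exact permutation p-values of 0.0104, 0.0139 and 0.0764. After adjustment none of them passed. CAG42 number 3 was the lowest of its group for all 4 genes in both tissues. Junb and Arc had 0.59 and 0.55, Egr1 0.32 and Npas4 0.02, and Egr1 turned to -0.37 without CAG42 number 3. Over the 8 members the median was 0.67, against 0.16 over the 29041 probe sets above the controls in both tissues. The 90th percentile of those probe sets was 0.71, above the members' median. Liver arrays also correlated best with the brain array of their own number, at 0.0775 to 0.285 with cerebellum and 0.0417 to 0.161 with brainstem. Over the 6 members above the controls in liver and brain the median r was -0.13 between cerebellum and liver and -0.42 between brainstem and liver, against 0.12 and 0.11 over all probe sets above the controls.

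**Figure D4:**
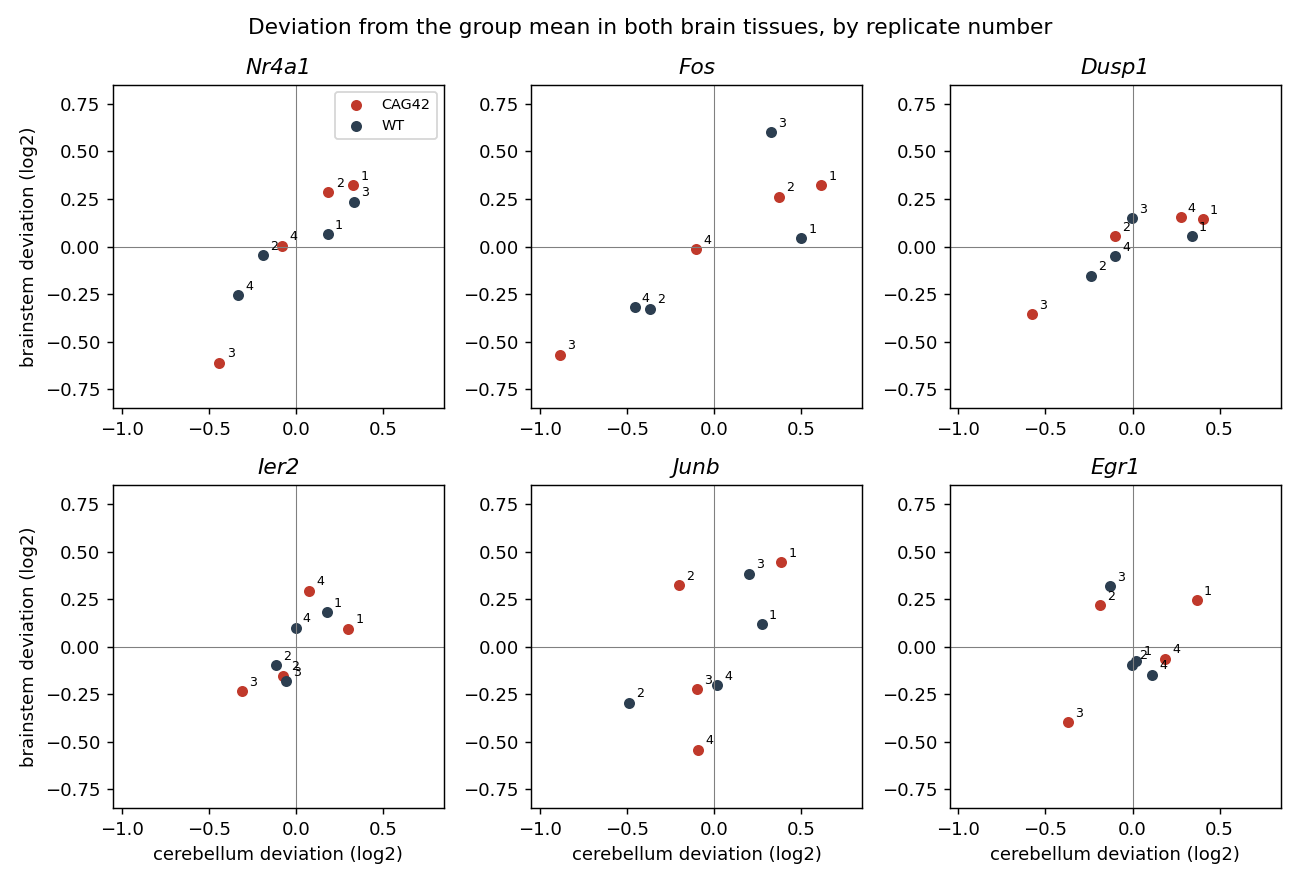
Deviation from the group mean in cerebellum (horizontal axis, log2) against that in brainstem (vertical axis, log2) for 6 members, with CAG42 arrays in red, WT arrays in dark blue and the replicate number beside each point. Nr4a1, Fos and Dusp1 run along the diagonal with CAG42 number 3 at its lower end, while Egr1 does not.

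Other genes of the same response were read from 5 lists, with 91 of 104 genes measured. In limma 0 passed in each tissue, with 4, 3 and 7 at an unadjusted p under 0.05 in cerebellum, brainstem and liver, counts of 91 that lie near the shares of all probe sets given above (3.59%, 4.17% and 8.61%), and 0 also passed when all probe sets of a gene were averaged. Of 19 other immediate early transcription factors, 11 had a cerebellar log2 difference above 0, where 47.6% of all probe sets did, with a median of 0.07 that was 0.02 when the probe sets of a gene were averaged. Among the closest relatives of Nr4a1 in that list, the CAG42 cerebella averaged 6.95 ± 0.28 for Nr4a2 where the WT cerebella averaged 6.49 ± 0.31 (SD, n = 4 each, limma adjusted p = 1.00), and 7.87 ± 0.87 for Nr4a3 where the WT cerebella averaged 7.15 ± 0.98. Atf3, a stress-induced factor of the same list, averaged 3.46 ± 0.21 in CAG42 cerebella and 3.80 ± 0.20 in WT cerebella.

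The medians of the 4 other lists in cerebellum were 0.10 for rapidly induced signalling and RNA decay genes (25 measured), -0.02 for late activity-regulated neuronal genes (14), -0.03 for the upstream MAPK, CREB and SRF pathway (25) and -0.07 for glucocorticoid-responsive genes (8). With probe sets averaged that of the late genes was 0.03. In brainstem the 5 medians ran from -0.04 to 0.10. Camk2a, the calcium-dependent kinase of synapses, averaged 9.57 ± 0.09 in CAG42 and 9.89 ± 0.05 in WT brainstem, a log2 difference of -0.33 ± 0.12 (limma adjusted p = 1.00). In liver they ran from 0.02 to 0.11, with the lowest adjusted p for the CREB coactivator Crtc1 (4.82 ± 0.05 in CAG42, 4.52 ± 0.09 in WT, limma adjusted p = 0.103) and for the AP-1 subunit Jund (9.57 ± 0.22 in CAG42, 9.24 ± 0.06 in WT, limma adjusted p = 0.194).

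The lists were also set beside the mean deviation of the 8 members above the controls in both brain tissues, over 16 arrays that share mice if numbers mark them. Over 12153 other genes the median r was 0.04 and 55.2% were above 0. The 8 glucocorticoid-responsive genes had a median of 0.41 with 7 above 0, led by Zbtb16 (0.59), Nfkbia (0.53) and Cdkn1a (0.51). Of 16 other immediate early transcription factors 11 were above 0, with a median of 0.29 and the highest r for Nfil3 (0.58), Cebpb (0.53) and Cebpd (0.48). Of 23 signalling and RNA decay genes 19 were above 0, with a median of 0.20, led by Ccn2 (0.48), Btg2 (0.47) and Zfp36l1 (0.42). Late activity-regulated neuronal genes had a median of -0.22, with 5 of 13 above 0, and the upstream pathway one of 0.04. The calcium-dependent kinase Camk4, of the upstream list, had r = -0.84, farther from 0 than any other listed gene. These are descriptions without a test, and the genes named here were picked for their r on these same arrays.

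Of 10401 genes outside the 10, those whose deviations were most like the mean of all members over the 16 brain arrays were Igkj1 (r = 0.91), Prxl2c (0.86), Hdac1 (0.86), Zfp273 (0.86), Rab4a (0.83), Ppp1r8 (0.83), Rps6kb2 (0.82) and Slc27a4 (0.81). In liver, with 8 arrays and 10530 genes, they were Prkaa1 (0.98), Anxa7 (0.97), Nfe2l2 (0.97), Mtmr2 (0.96) and Sirt5 (0.96). The liver mean spans -0.42 in WT array 3 to 0.38 in CAG42 array 3 and follows Egr1 (r = 0.96), and it includes Fosb, Arc and Npas4, which were at the controls. Without those 2 arrays the 5 genes had r of 0.88 to 0.95, and with the mean of the 7 members above the controls they had 0.95 to 0.98. The corresponding values of the 8 genes in brain were 0.74 to 0.92 without CAG42 cerebella 1 and 3 and 0.77 to 0.88 with the 8 members above the controls. These checks were chosen after seeing the data. The named genes were picked for the highest r on these same arrays, so a high r in the checks is no separate support.

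Markers of other cells and of RNA quality were read beside these results. In cerebellum the mean of 11 choroid plexus genes was 6.05 to 6.58 in CAG42 and 4.84 to 6.52 in WT, with r = -0.0039 to the mean of the members. That of 4 erythrocyte genes was 8.35 to 8.85 in CAG42 and 7.93 to 8.84 in WT cerebellum (r = -0.36 to the members) and 8.52 to 9.21 in CAG42 and 7.99 to 8.93 in WT brainstem (r = -0.29). In brainstem 5 oligodendrocyte genes averaged 10.25 to 10.41 in CAG42 and 10.15 to 10.21 in WT, without overlap, and had r = 0.46 to the members. The difference between the 3′ and 5′ probe sets of Gapdh was -0.03 to 0.01 in CAG42 brainstems and 0.01 to 0.08 in WT brainstems, with the groups touching but not overlapping, with r = 0.64 to the members. In liver 11 macrophage genes averaged 6.38 to 7.36 in CAG42 and 6.55 to 7.29 in WT (r = 0.21 to the members), and 4 erythrocyte genes 8.45 to 8.96 in CAG42 and 8.15 to 8.84 in WT (r = 0.62). The highest r to the members in liver was that of 6 genes of the astrocyte list, at 5.59 to 5.87 in CAG42 and 5.67 to 6.02 in WT (r = 0.86, rho = 0.90, exact permutation p = 0.00174, adjusted over 33 relations 0.0573), followed by the neuron and endothelial lists with 0.74 each. In liver 5 of the 6 astrocyte genes and 4 of the 6 neuron genes were above the controls. The neuron list averaged 4.21 in CAG42 and 4.28 in WT livers. Several of the r values above moved with few arrays. Without the 2 arrays farthest from the median of the members, the erythrocyte list had r = -0.96 in cerebellum, -0.85 in brainstem and 0.27 in liver, the choroid plexus list 0.44 in cerebellum, the oligodendrocyte list -0.35 in brainstem, the Gapdh difference 0.57 in brainstem, and the macrophage, astrocyte, neuron and endothelial lists 0.05, 0.75, 0.55 and 0.64 in liver. The part of any of these in the members' values was not tested. In bulk tissue, fewer cells of a type and less RNA per cell cannot be told apart.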

How the data were processed

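The authors hybridised RNA of each tissue to 1 Affymetrix array per sample and deposited RMA values, which are log2 levels after background correction, quantile normalization and summary of each probe set. The submitters' processing notes name R 2.7.0, and whether the 3 tissues were normalized together is not stated. The labels and the methods give different RNA kits and input amounts. Gene names came from the platform annotation, and 551 probe sets with several genes and 15588 with none were left unnamed, and no member was among the probe sets with several genes. The number of arrays limits precision.

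The fit used limma 3.58.1 in R 4.3.3 over the 24 arrays and 45037 probe sets, with 6 group means and Benjamini-Hochberg adjustment over all probe sets (threshold 0.05). Exact two-sided permutation tests, correlations of deviations from the group mean and figures used Python 3.11.15, SciPy 1.17.1 and matplotlib 3.10.9. The limma fit and the correlations were tested on simulated data, and the motif search on short made-up sequences. A gene with 2 probe sets is represented by that of the higher mean over all arrays. All member probe sets are named. From each pathway list up to 4 genes of lowest p per tissue could be named, and outside the members the 8 genes in brain and 5 in liver most like them. Listed genes of the highest r to the members in brain were named as well, with Camk4, whose r was farthest from 0. Members and lists were chosen with earlier results of these data known. Alternatives changed the normalization, the probe sets tested, array weights, the empirical Bayes step, the tissues fitted, a replicate block, the test, and single arrays.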

Additional observations from a re-analysis of the deposited data

Results flagged for a closer look

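Of 66 groups of 4 arrays (11 probe sets in 3 tissues and 2 genotypes), 2 held an array far from the other 3 by Dixon's criterion, and chance alone gives about 1 in 20 groups. Both were of Egr1 in WT replicate 3. In WT brainstem it read 9.48, with the other arrays at 9.01 to 9.09. In WT liver it read 4.92, with the others at 7.62 to 8.03. The Egr1 genotype difference in liver was 1.72 with that array and 0.98 without it.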

How the results depend on the processing

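No member passed for genotype in any tissue under any alternative run, the replicate block included (0 of 11), although the numbers did not pair the genotypes (r of -0.299 to 0.214 within a tissue). With dim probe sets left out, 2, 5 and 6 members passed for WT cerebellum minus brainstem, cerebellum minus liver and brainstem minus liver, since dim members were not tested. The sign of Junb in liver turned with array weights (0.168) and centred arrays (0.0311), as did that of Npas4 for cerebellum minus brainstem among CAG42 mice (0.0185). With single arrays left out, the log2 difference spanned -0.0715 to 0.0902 for Fosb, -0.0774 to 0.173 for Arc and -0.0182 to 0.158 for Npas4 in brainstem, -0.108 to 0.452 for Fos, -0.15 to 0.208 for Junb and -0.268 to 0.0168 for Nr4a1 in liver, and -0.121 to 0.247 for Fos between the WT brain tissues. The median r between members was 0.428 in cerebellum and 0.248 in liver without the 2 arrays farthest from the median. Chosen after seeing the data were the members above the tissue median only (0.697 in brainstem) and leaving out single arrays, which gave 0.48 to 0.676 in cerebellum, 0.36 to 0.785 in brainstem, -0.148 to 0.322 in liver and 0.627 to 0.778 between the brain tissues. The cause was not tested in any case. With 4 arrays a group, exact tests cannot go below 0.0286, and values of members at the controls cannot be told from background.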
